A study of Drosophila melanogaster with 72 samples.

Results

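The 120 genes described here had a 24-h rhythm of nuclear RNA in the libraries labelled Set1 RNAi and no clear rhythm in the libraries of the mCherry RNAi control. They were picked from 17895 features with an FBgn identifier by a 24-h cosine fitted by least squares to log2(CPM + 1), where CPM is the count scaled to the library total. In the Set1-labelled libraries a gene needed a mean CPM of 5 or more, a share of variance explained by the cosine (R2) of at least 0.5 and a difference between fitted peak and trough of at least 0.6 on the log2 scale. In the control the R2 had to be under 0.2 and the peak-to-trough difference under 0.5. The pattern over time in both genotypes therefore chose these genes, and those values are given as a description, with no test.

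Nuclear RNA was measured from heads of D10 male Drosophila melanogaster kept at 25 °C with 12 h of light and 12 h of dark. Rh1-Gal4, which is active in the outer photoreceptors of the eye, drove RNAi against Set1, Trr, Trx or mCherry, and every group, the control included, carried the same driver and a GFP tag on the nuclear envelope with which nuclei were enriched. Each genotype was sampled in 3 replicates of 400 flies at 6 zeitgeber times (ZT0 is lights-on), which gave 72 libraries. The Set1-labelled library of ZT20 replicate 1 held 687 counts and was left out. The libraries are pools of flies, and only the outer photoreceptors express the driver, so nuclei of other cells that came through the enrichment kept the normal gene.

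Set1, Trr and Trx are the methyltransferases of the fly that place the H3K4 methyl mark on histones at the start of active genes and at enhancers. Each works within a complex of the COMPASS family, and Set1 is the main source of the trimethylated form in flies. Nuclear RNA in fly photoreceptors follows the light cycle through the core clock and through light itself.

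Total counts ranged over 8424081 to 13384021 in the Set1-labelled libraries, 10160670 to 24526117 in the Trr-labelled libraries, 12329931 to 24586538 in the Trx-labelled libraries and 8522393 to 21479511 in the control. The RNA of the targeted genes checks the labels. Set1 averaged 215 ± 38.0 CPM in the Set1-labelled libraries (SD, n = 17), against 208 ± 26.7 CPM in the control (SD, n = 18). Transcripts of trr averaged 131 ± 14.9 CPM in the Trr-labelled libraries and 146 ± 16.4 CPM in the Trx-labelled libraries, against 174 ± 72.9 CPM in the control (SD, n = 18 each). The log2 fold change of trr over the control was -0.94 with Trr and also -0.86 with Trx (edgeR, adjusted p = 3.33e-22 and 1.31e-20), and that of Trr over Trx was -0.09 (adjusted p = 0.022). Transcripts of trx averaged 630.2 ± 48.5 CPM in the Trx-labelled libraries and 668 ± 31.8 CPM in the Trr-labelled libraries, against 436 ± 48.6 CPM in the control (SD, n = 18 each). With TMM scaling, which adjusts for library composition, the log2 fold change of trx was -0.17 with Trx over the control and 0.15 with Trr over Trx (edgeR, adjusted p = 0.00129 and 0.00112). Set1 was thus not lower by CPM in the Set1-labelled libraries, trr was lower in both other genotypes, and no fold change reached 1, so the genotypes are named by their labels. The summed level of 18 marker genes of outer photoreceptors ranged over 53621 to 80765 CPM in the Set1-labelled libraries and 56019 to 100255 CPM in the control, with 1 of the 18, ninaA, listed at 0 throughout. Control ZT12 replicate 1 stood apart, with a median correlation of 0.888 with the other libraries of its group, and results that rest on it are given with and without it.

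**Figure D1:**
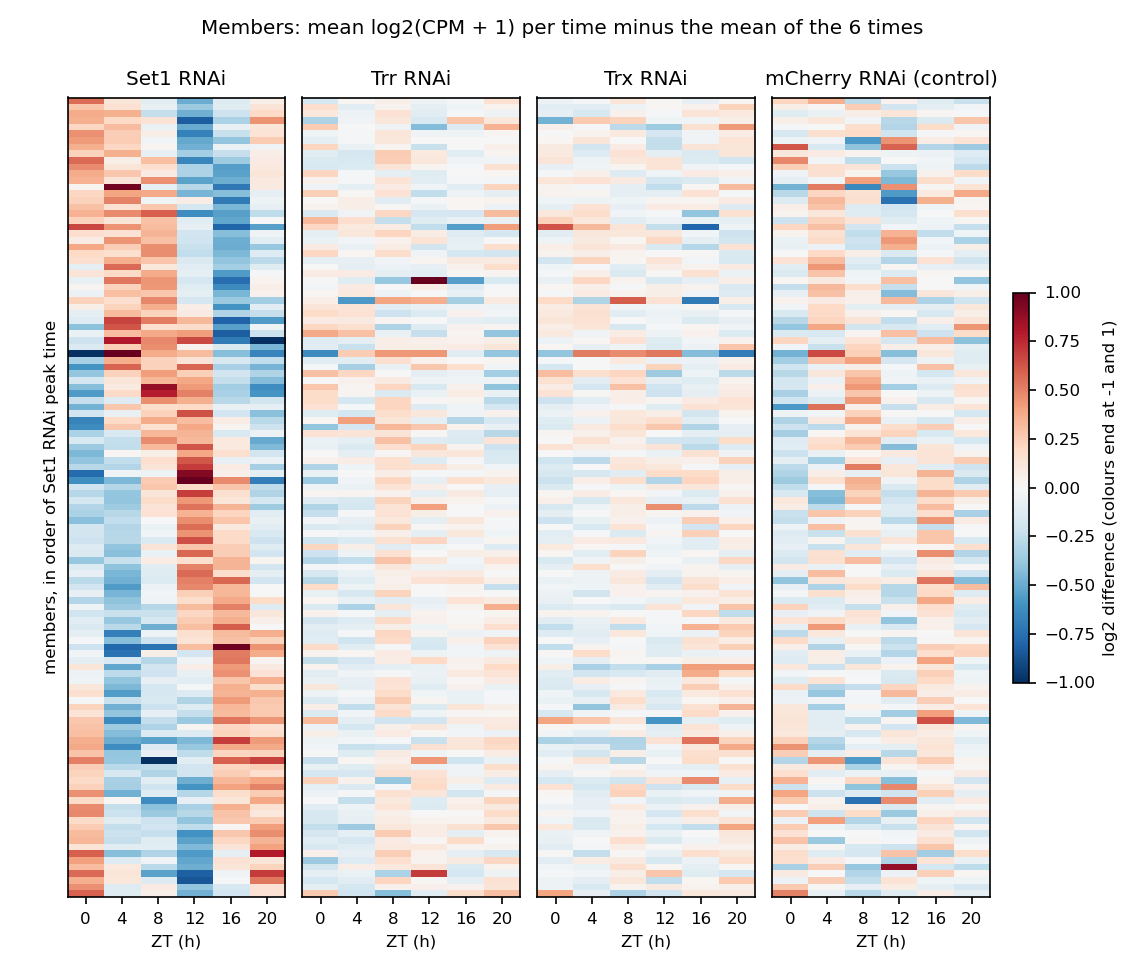
Each row is 1 of the 120 genes, in order of peak time in the Set1-labelled libraries, and each cell is the mean log2(CPM + 1) at that ZT minus the mean of the 6 times, for Set1, Trr, Trx and mCherry RNAi. A diagonal of high values crosses the Set1 panel from ZT0 to ZT20 by construction, and the other 3 panels are paler, with median peak-to-trough differences of 0.23 in Trr, 0.19 in Trx and 0.30 in the control.

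Of the 7046 FBgn features with that mean in the Set1-labelled libraries, 1671 passed the Set1 thresholds, and 1027 of these were also rhythmic in the control at the same R2 and peak-to-trough minimum. The 120 genes are those at the other end, among 2042 of the 7046 that were flat in the control. With the roles of the 2 genotypes exchanged, 112 genes were rhythmic in the control and flat in the Set1-labelled libraries. The same rule with Trr in place of Set1 found 141 genes and with Trx 78.

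The rhythms were mostly modest. The peak-to-trough difference had a median of 0.80 on the log2 scale in the Set1-labelled libraries (range 0.60 to 2.02) against 0.30 in the control (0.03 to 0.50), and 28 of the 120 genes reached 1. The median R2 was 0.584, and 23 genes (19.2%) had an R2 of at least 0.7, against 838 of the 1551 other features past the Set1 thresholds (54.0%). The spread around the fitted curve was wider in the control, with a median residual SD of 0.36 log2 units against 0.26 in the Set1-labelled libraries, and a gene can be flat by the rule because it varied without a daily pattern. Levels were low to moderate, with a median over genes of 20.4 CPM in the Set1-labelled libraries and 17.7 CPM in the control. Of the 120, 88 (73.3%) had the higher mean in the Set1-labelled libraries, against 57.2% of the 7046. At least 1.5-fold higher were 28 of the 120 (23.3%), against 7.69% of the 7046, and at least 1.5-fold lower were 5 (4.17%), against 2.38%. The rule set a minimum mean in the Set1-labelled libraries and none in the control, and the 7046 features were taken with that same minimum.

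Values lay close to every threshold. For the mean, asrij (5.05 CPM) and Acp36DE (5.35 CPM) were just inside and asRNA:CR45832 (4.79 CPM) and CG11550 (4.68 CPM) just outside. For R2 in the Set1-labelled libraries, CG10151 (0.501) and bol (0.502) were inside and disco-r (0.499) and sty (0.499) outside. For the Set1 peak-to-trough difference, CanB (0.602) and CG12299 (0.606) were inside and CG9147 (0.599) and DNAlig3 (0.596) outside. In the control, Usf (R2 of 0.1997) and mrt (0.199) were inside and spdi (0.202) and asRNA:CR46136 (0.206) outside, while for the peak-to-trough difference CG9706 (0.499) and cert (0.494) were inside and tfc (0.501) and Gpdh3 (0.506) outside.

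Peak times were spread over the day. Between ZT0 and ZT24, the 4-h windows held 18, 22, 17, 22, 22 and 19 of the 120 peaks. The other 1551 features past the Set1 thresholds gave 215, 368, 240, 107, 279 and 342 peaks in the same windows, so that ZT12 to ZT16 held 18.3% of the 120 genes and 6.90% of the others. This difference was not tested, because both lists were chosen on these fits. The windows were not counted again without control ZT12 replicate 1, and without that library 41 of the 120 genes were not flat. Of genes that peaked from ZT12 to ZT16, the 41 included Ku80, Rbf, CG13361 and asrij and did not include MRP and CG42553.

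CkIIalpha had the best fit of the 120 genes. It encodes the catalytic subunit of casein kinase 2, which in flies phosphorylates the clock protein PER, and lies on chromosome 3L (FBgn0264492, 23097072 to 23103460, plus strand, BDGP6.46). At ZT8 it had 133, 113 and 104 CPM in the Set1-labelled libraries, against 58.7, 64.1 and 56.4 CPM in the control. At ZT20 it had 44.3 and 44.1 CPM in the Set1-labelled libraries, against 47.5, 35.9 and 79.4 CPM in the control. The Set1-labelled libraries at ZT8 were thus above all control libraries, and at ZT20 they fell within the control range. The fitted peak-to-trough difference was 1.51 ± 0.09 (SE) in the Set1-labelled libraries, with a peak at ZT8.81, and 0.32 ± 0.19 in the control. The control at ZT20 holds 1 high value, 79.4 CPM in replicate 3, and without that library the control R2 was 0.590 and its peak-to-trough difference 0.51, past both limits of the rule.

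CG33217 (FBgn0053217, 3L, 23126025 to 23132209, plus strand) lies 22564 bp from CkIIalpha with no other FBgn feature between them, and peaked at ZT8.55. It had 41.2, 34.3 and 27.5 CPM at ZT8 and 11.7 and 11.4 CPM at ZT20 in the Set1-labelled libraries, against 17.3, 16.9 and 13.5 CPM at ZT8 and 11.8, 9.32 and 17.9 CPM at ZT20 in the control. The ZT8 and ZT20 values did not overlap in the Set1-labelled libraries and overlapped in the control. Those are its highest and lowest Set1 times, and the rule used these values. Such times did not overlap in Set1 for any of the 120 genes, and the same held for 81.6% of the 7046 features. In the control they did not overlap for 23 of the 120 (19.2%) and for 44.4% of the 7046.

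Parp1 encodes the poly(ADP-ribose) polymerase of the fly, which modifies chromatin proteins and acts in DNA repair (FBgn0010247, 3R, 3461351 to 3587054, minus strand). At ZT8 it had 672, 628 and 554 CPM in the Set1-labelled libraries, against 380.1, 350.5 and 351 CPM in the control. At ZT0 it had 361, 375 and 327 CPM in the Set1-labelled libraries, against 241, 249.7 and 249 CPM in the control. The control values at ZT0 and ZT8 did not overlap either, although its peak-to-trough difference was 0.27 ± 0.22, against 0.86 ± 0.09 in the Set1-labelled libraries. Control ZT12 replicate 1 (193 CPM) and ZT20 replicate 3 (413 CPM) were the lowest and highest control libraries, and Parp1 left the flat group without either of them.

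Of the genes that peaked at night, Orcokinin, a neuropeptide precursor (FBgn0034935, 2R, 23946959 to 23949076, minus strand), had 59.3, 48.1 and 55.1 CPM at ZT16 and 14.9, 15.8 and 15.3 CPM at ZT4 in the Set1-labelled libraries. The control had 29.5, 31.7 and 42.9 CPM at ZT16 and 17.5, 29.99 and 22.8 CPM at ZT4. The Set1-labelled values were above the control at ZT16 and below it at ZT4, so the means over the day were alike, 29.5 CPM in the Set1-labelled libraries and 29.4 CPM in the control. The gene was also not flat without control ZT12 replicate 1, where it had 7.63 CPM.

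The gene stum, which is needed for mechanical sensing in proprioceptive neurons of the fly (FBgn0050263, 2R, 21674901 to 21685000, plus strand), was low by day in the Set1-labelled libraries. It had 30.1, 36.3 and 46.1 CPM at ZT8 in the Set1-labelled libraries, against 88.1, 97.1 and 85.2 CPM in the control. At ZT16 it had 102, 72.2 and 93.6 CPM in the Set1-labelled libraries, against 89.6, 99.6 and 105 CPM in the control. The groups did not overlap at ZT8 and overlapped at ZT16.

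Fas3, an adhesion protein of septate junctions (FBgn0000636, 2L, 18320102 to 18393441, plus strand), was high by day in the Set1-labelled libraries. It had 53.5, 68.4 and 53.8 CPM at ZT4 and 14.0, 26.2 and 20.5 CPM at ZT16 in the Set1-labelled libraries. The control had 39.9, 21.4 and 24.0 CPM at ZT4 and 27.4, 25.6 and 23.0 CPM at ZT16, with a peak-to-trough difference of 0.07 ± 0.28.

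**Figure D2:**
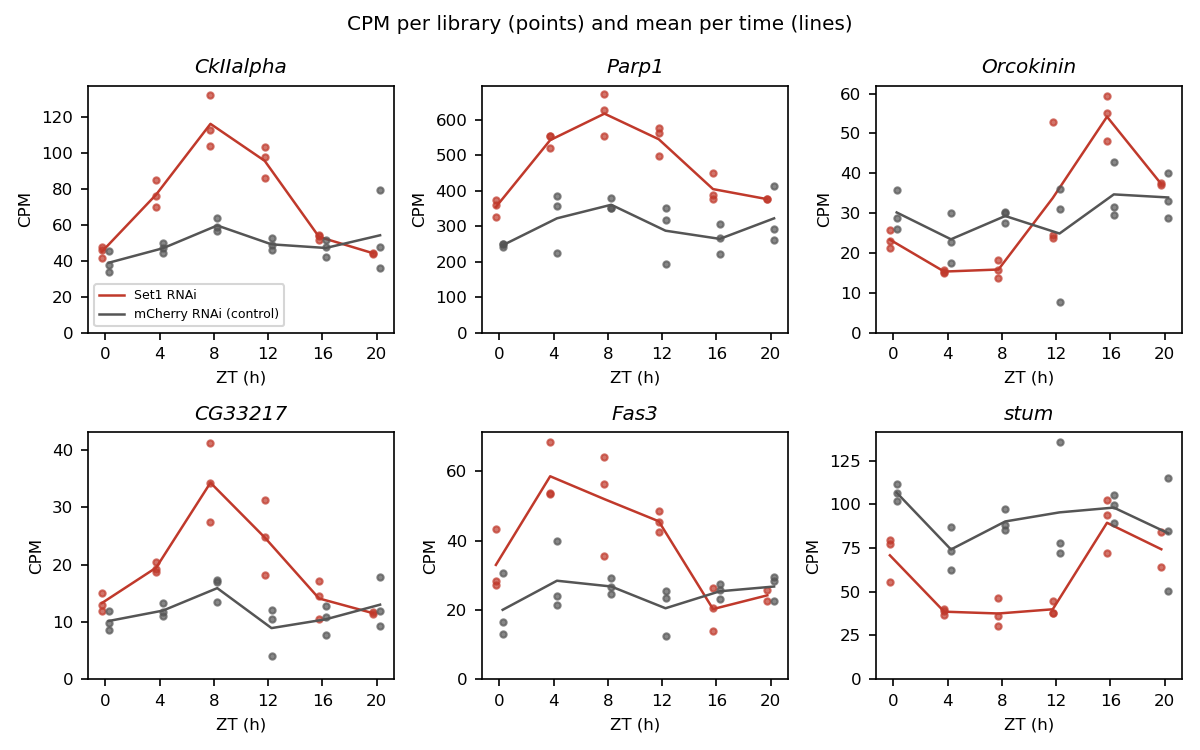
Points are CPM in single libraries and lines the mean at each ZT for 6 of the 120 genes, in the Set1-labelled libraries (red) and the mCherry control (grey). CkIIalpha, Parp1, CG33217 and Fas3 stood above the control in the light phase, stum lay below it at ZT4 to ZT12, and single control libraries at ZT12 and ZT20 lie far from their replicates.

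The other genes with the best fits or the widest swings were a mixed group. Usf, a basic helix-loop-helix leucine zipper factor, had 71.1, 87.6 and 81.0 CPM at ZT0 and 39.3, 41.4 and 50.6 CPM at ZT12 in the Set1-labelled libraries, against 35.8, 28.9 and 32.4 CPM at ZT0 and 49.3, 35.6 and 30.2 CPM at ZT12 in the control. CG3556 lies 9152 bp from Usf on the X chromosome, peaked at ZT2.27 and averaged 61.0 ± 14.6 CPM in the Set1-labelled libraries, against 30.8 ± 6.49 CPM in the control (SD, n = 17 and 18). P5CDh1, an enzyme of proline breakdown, peaked at ZT19.8 with a peak-to-trough difference of 0.66 ± 0.08. The swing of P5CDh1 was thus small and its fit close.

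Several wide swings came from genes with few counts in the control. Eglp2, of the aquaporin family, averaged 7.62 ± 3.34 CPM in the Set1-labelled libraries and 1.23 ± 0.629 CPM in the control (SD, n = 17 and 18). Pgant4, which starts O-linked glycosylation of proteins, had 14.8 and 11.9 CPM at ZT20 and 2.17, 2.21 and 3.51 CPM at ZT8 in the Set1-labelled libraries, against 3.87, 1.28 and 1.94 CPM at ZT20 and 0.786, 1.13 and 1.73 CPM at ZT8 in the control. Ku80, a subunit of the complex that joins broken DNA ends, had 9.68, 14.95 and 7.95 CPM at ZT12 in the Set1-labelled libraries and 0, 3.80 and 3.62 CPM in the control. The flat control of Ku80 rests on that 0 CPM of ZT12 replicate 1, and without this library the control R2 was 0.739 and its peak-to-trough difference 0.83. In all, 13 of the 120 genes had a control mean under 5 CPM. CG8617 was better covered, with 21.3, 21.8 and 15.7 CPM at ZT4 and 5.22 and 4.30 CPM at ZT20 in the Set1-labelled libraries, against 6.32, 5.03 and 6.53 CPM at ZT4 and 5.31, 4.02 and 4.45 CPM at ZT20 in the control.

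The most abundant of the 120 genes was kst, the beta-heavy spectrin, with a mean of 1346 ± 399 CPM in the Set1-labelled libraries and 1449 ± 334 CPM in the control (SD, n = 17 and 18). Per kilobase of exon, Gbeta76C, the beta subunit of the G protein of phototransduction, was higher, at 471 CPM per kb against 93.1 CPM per kb for kst in the Set1-labelled libraries. MRP, a transporter of the ABC family (517 CPM), Parp1 (479 CPM), PlexA, a semaphorin receptor (342 CPM), and bol, an RNA-binding protein of the germ line (318 CPM), followed by mean in the Set1-labelled libraries.

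Members on lists of pathways and cell types are given as counts, beside a base of 120 members among the 7046 features. At that share lists of this size can hold few members or none, and no list was tested. None was among the 9 core clock genes, of which 8 passed the Set1 thresholds and 1 was flat in the control. None was among 11 measured COMPASS subunits, 80 cytosolic ribosomal proteins, 16 autophagy genes, 30 cytochrome P450 genes or 107 small nucleolar RNAs at that mean. Of 59 oxidative phosphorylation subunits 2 were members, COX7A of complex IV (peak at ZT7.39) and ATPsynB of the ATP synthase (ZT20.9). Of 24 proteasome subunits 2 were members, Prosbeta2 of the core (ZT13.7) and Rpt1 of the cap (ZT20.1), and of 45 translation factors 1 was, eIF4EHP, a cap-binding repressor (ZT6.35). Of 355 long noncoding RNAs 7 were members, the best fits being lncRNA:CR43242, lncRNA:CR46006, lncRNA:CR43973 and lncRNA:CR44999.

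Among marker genes of cell types, ple (tyrosine hydroxylase, which makes dopamine) is on the list of brain neurons, repo (the homeobox factor of glia) on that of glia and Gbeta76C on that of outer photoreceptors. In the Set1-labelled libraries repo had 18.1, 15.5 and 23.4 CPM at ZT0 and 7.79, 9.85 and 9.01 CPM at ZT16, against 20.6, 10.5 and 10.2 CPM at ZT0 and 12.4, 13.3 and 7.48 CPM at ZT16 in the control. The times did not overlap in the Set1-labelled libraries and overlapped in the control. These are its highest and lowest Set1 times. Such times did not overlap in Set1 for any of the 120 genes, nor did they for 81.6% of the 7046 features. In the control they did not overlap for 23 of the 120 (19.2%) and for 44.4% of the 7046, and the rule used all these values. The summed levels of whole marker lists also moved over the day. The 9 glial markers ranged over 291 to 1878 CPM in the Set1-labelled libraries and 205 to 1130 CPM in the control, with peak-to-trough differences of 2.46 and a peak at ZT6.87 in Set1, and 1.71 and ZT5.47 in the control. The 11 markers of lens and pigment cells peaked at ZT7.04 with 1.82 in Set1 and at ZT5.34 with 2.69 in the control. Fewer nuclei of a type and less RNA per nucleus cannot be told apart in such bulk samples, and the part of cell mixture in the rhythms of the 120 genes was not tested.

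Other genes, chosen after their values were seen, are known for roles in chromatin and the cell cycle. They include tara, a trithorax-group gene that regulates sleep in the fly, with 64.1, 67.9 and 68.4 CPM at ZT4 and 27.4, 46.0 and 30.5 CPM at ZT16 in the Set1-labelled libraries, against 46.1, 28.9 and 37.9 CPM at ZT4 and 37.4, 33.3 and 26.7 CPM at ZT16 in the control. The repressors Rbf and E2f2 peaked at ZT12.7 and ZT18.3, Dref, a transcription factor of replication genes, at ZT16.5, and Mettl3, which methylates adenosine in RNA, at ZT22.4.

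The Set1-labelled values at each gene's highest and lowest time did not overlap for any of the 120 genes, and the same held for 81.6% of all 7046 features at that mean. The rule used these values. In the control the values at the same 2 times also did not overlap, in either direction, for 23 of the 120 genes (19.2%), among them Parp1, kst, Ork1 and pwn, and for 44.4% of the 7046. Fitted separately, the series of replicate 1, 2 and 3 in the Set1-labelled libraries had a peak-to-trough difference of at least 0.6 in 100, 84 and 102 of the 120 genes. In 45 genes each of the 3 series had that difference and a peak within 2 h of the joint peak. These series are the libraries that the rule used and that gave the joint peak, so some agreement is built in. No share over other features is given.

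Membership depended on single libraries, and more on the control than on Set1. Without 1 Set1-labelled library, 97 to 117 of the 120 genes stayed past the Set1 thresholds, the lowest without ZT16 replicate 1 or 3, and 61 stayed whichever was left out. Without 1 control library, 79 to 114 stayed flat, 79 without ZT12 replicate 1 and 88 without ZT20 replicate 3, and 36 stayed flat whichever was left out. Without ZT12 replicate 1 the genes lost included Orcokinin, Parp1, Ku80, Rbf, Gli, Ork1, Rgk1 and comm. Without ZT20 replicate 3 they included CkIIalpha, Parp1, P5CDh1, pwn, kst and Ork1.

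The 17 genes that met every threshold whichever of the 35 libraries was left out were CG33217, CG8617, stum, Fas3, p38b, sll, CG6574, CG7099, Tom70, bma, CG17385, ninaG, Ugt36A1, MRP, CG42553, Gbeta76C and ple. They are named for that reason alone, after their values were seen. They include ninaG, an enzyme of rhodopsin chromophore synthesis, p38b, a stress-activated kinase, Tom70, a receptor of the mitochondrial outer membrane, and sll, a transporter of the sulfate donor PAPS. With a whole replicate number left out in turn, 13 of the 120 genes stayed under the rule every time. Of the 17, CG33217, CG8617, stum, sll, CG6574, CG7099, Tom70 and CG42553 were among those 13, and the rest, such as Fas3, p38b, ninaG and ple, were not.

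**Figure D3:**
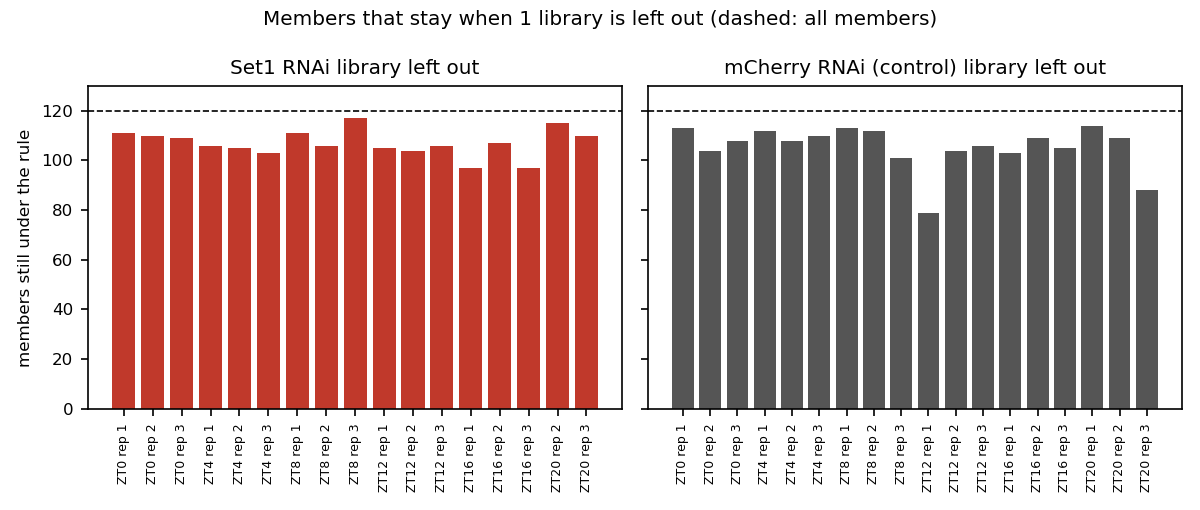
Bars give how many of the 120 genes still met the Set1 thresholds without the named Set1-labelled library (left, red) or stayed flat without the named control library (right, grey), and the dashed line marks 120. Bars for Set1 lie between 97 and 117, and those for the control between 79 (ZT12 replicate 1) and 114.

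The genes were spread over the chromosomes, with 22 on 2L, 24 on 2R, 27 on 3L, 29 on 3R, 3 on chromosome 4 and 15 on X. The X held 12.5% of the 120 genes and 17.9% of the 7046 features, 3L held 22.5% and 19.1%, and chromosome 4 held 2.5% and 1.19%. Of the 120, 113 are annotated as protein-coding and 7 as noncoding RNA, and the median exon length was 2452 bp, against 2516 bp for the 7046 features. There were 12 pairs of neighbours within 50 kb, 8 of them with peaks within 4 h of each other. CkIIalpha with CG33217 and CG3556 with Usf are given above. The share among neighbouring pairs of other features is not given, so this count is a description. In 2 of the 8 pairs the genes overlap, Acp36DE within Fas3 and Rpt1 with CG17985. The counts did not use strand, so reads of overlapping genes can be mixed. More than 10% of the exon bases were shared with another gene in 13 of the 120 (10.8%), against 11.9% of the 7046, and in CG42354 (96.9%), lncRNA:CR44999 (91.8%) and pre-lola-G (60.9%) reads of the gene and its neighbour cannot be told apart.

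The Trr-labelled and Trx-labelled libraries were not used to choose the genes, and a rhythm there could be tested. The test was the quasi-likelihood F test of edgeR on the cosine and sine terms, in the 36 libraries of both genotypes, with Benjamini-Hochberg adjustment over 14767 features at an adjusted p under 0.05. All 120 genes passed the filter on low counts. In the Trr-labelled libraries 20 of the 120 genes were rhythmic, and the background was 20.8% of all features tested. In the Trx-labelled libraries 21 were rhythmic, with a background of 12.3%. Among all 7046 features at the same Set1 mean the shares were 27.2% with Trr and 16.5% with Trx, and among the other 1551 features past the Set1 thresholds 44.8% and 37.2%. The shares of the 120 genes, 16.7% and 17.5%, were thus near the background and below those of the other genes rhythmic in the Set1-labelled libraries. Those others include the 1027 genes also rhythmic in the control, while the 120 were picked as flat there. The gap to them is therefore not independent of the rule. The counts depended on the libraries in the fit. Without any 1 replicate number 8 genes were called with Trr and 9 to 13 with Trx, and in a fit of all 71 libraries 2 and 8, where 5.88% and 4.06% of all features were called. In size, 6 of the 120 genes reached a peak-to-trough difference of 0.6 with Trr and 6 with Trx.

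Peak times were set beside those of the Set1-labelled libraries. The Trr peak lay within 4 h of the Set1 peak in 59 of the 120 genes (49.2%) and in 65.4% of the other 1551, and the Trx peak in 68 (56.7%) and in 75.05% of the others, a description without a test. Of the genes called rhythmic, 13 of 20 with Trr (65.0%) and 17 of 21 with Trx (81.0%) peaked within 4 h of the Set1 peak, against 84.3% of 695 and 91.0% of 577 called among the others. The others include the genes also rhythmic in the control, so these gaps too are not independent of the rule.

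The smallest adjusted p of the 120 genes belonged to Ork1 with Trr and to pwn with Trx, and pwn came next to Ork1 with Trr. The gene pwn had 10.7, 8.17 and 8.27 CPM at ZT12 and 3.29, 4.49 and 3.69 CPM at ZT0 in the Trr-labelled libraries. It had 9.61, 11.0 and 12.6 CPM at ZT8 and 5.21, 3.65 and 4.26 CPM at ZT20 in the Trx-labelled libraries. High and low times did not overlap in either genotype. The peak-to-trough difference was 1.09 ± 0.16 with Trr (edgeR, adjusted p = 2.97e-05) and 1.41 ± 0.14 with Trx (edgeR, adjusted p = 1.34e-07). The Trr call was lost in the fit of all 71 libraries (adjusted p = 0.199). In the Set1-labelled libraries pwn had 16.9, 13.6 and 13.1 CPM at ZT4 and 1.96, 0.905 and 0.730 CPM at ZT0, against 2.26, 2.57 and 2.15 CPM at ZT4 and 0.838, 0.610 and 0.0940 CPM at ZT0 in the control. The control was highest at ZT4 as well, and pwn stayed flat there in 11 of the 18 fits that left out 1 control library.

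Ork1, a potassium leak channel that sets the resting potential (FBgn0017561, X, 10878054 to 10891250, minus strand), had 109.7, 139.8 and 141 CPM at ZT0 and 75.2, 79.2 and 86.6 CPM at ZT8 in the Trr-labelled libraries. It had 149.7, 154 and 149 CPM at ZT0 and 77.2, 101 and 97.6 CPM at ZT8 in the Trx-labelled libraries. Both genotypes were high around lights-on and low at ZT8, with peak-to-trough differences of 0.73 ± 0.10 (edgeR, adjusted p = 2.45e-05) and 0.59 ± 0.12 (edgeR, adjusted p = 0.000896), the call with Trx being lost without replicate 2 (adjusted p = 0.0862). In the Set1-labelled libraries Ork1 peaked at ZT23.9, with 28.9, 19.7 and 23.1 CPM at ZT0, against 26.7, 13.8 and 15.4 CPM at ZT0 in the control.

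The dopamine enzyme ple (FBgn0005626, 3L, 6713356 to 6719525, minus strand) had 64.2, 64.6 and 63.2 CPM at ZT20 and 32.2, 28.3 and 35.6 CPM at ZT16 in the Trr-labelled libraries, a peak-to-trough difference of 0.65 ± 0.18 (edgeR, adjusted p = 0.0104). That call was lost without replicate 2 or 3 and in the fit of all 71 libraries (adjusted p = 0.0782, 0.15 and 0.117). In the Trx-labelled libraries it had 99.3, 93.4 and 77.8 CPM at ZT0 and 30.5, 33.4 and 35.01 CPM at ZT16, a difference of 1.19 ± 0.19 (edgeR, adjusted p = 1.98e-05). ZT16 was the lowest time in both, as in the Set1-labelled libraries, where ple had 4.23, 5.13 and 4.73 CPM, against 10.2, 8.33 and 7.06 CPM in the control.

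Gbeta76C (FBgn0004623, 3L, 19687637 to 19689992, plus strand) had 322, 314 and 271 CPM at ZT16 and 169.5, 173 and 199.7 CPM at ZT4 in the Trx-labelled libraries. The 2 times did not overlap, and the peak-to-trough difference was 0.84 ± 0.13 (edgeR, adjusted p = 7.29e-07). In the Trr-labelled libraries the difference was 0.28 ± 0.08 and missed the threshold (edgeR, adjusted p = 0.0545). In the Set1-labelled libraries it had 947, 686 and 1110.4 CPM at ZT16 and 469, 501 and 452 CPM at ZT4, against 759, 741 and 941 CPM at ZT16 and 463, 992 and 488 CPM at ZT4 in the control. A single control library, ZT4 replicate 2, held the high ZT4 value.

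**Figure D4:**
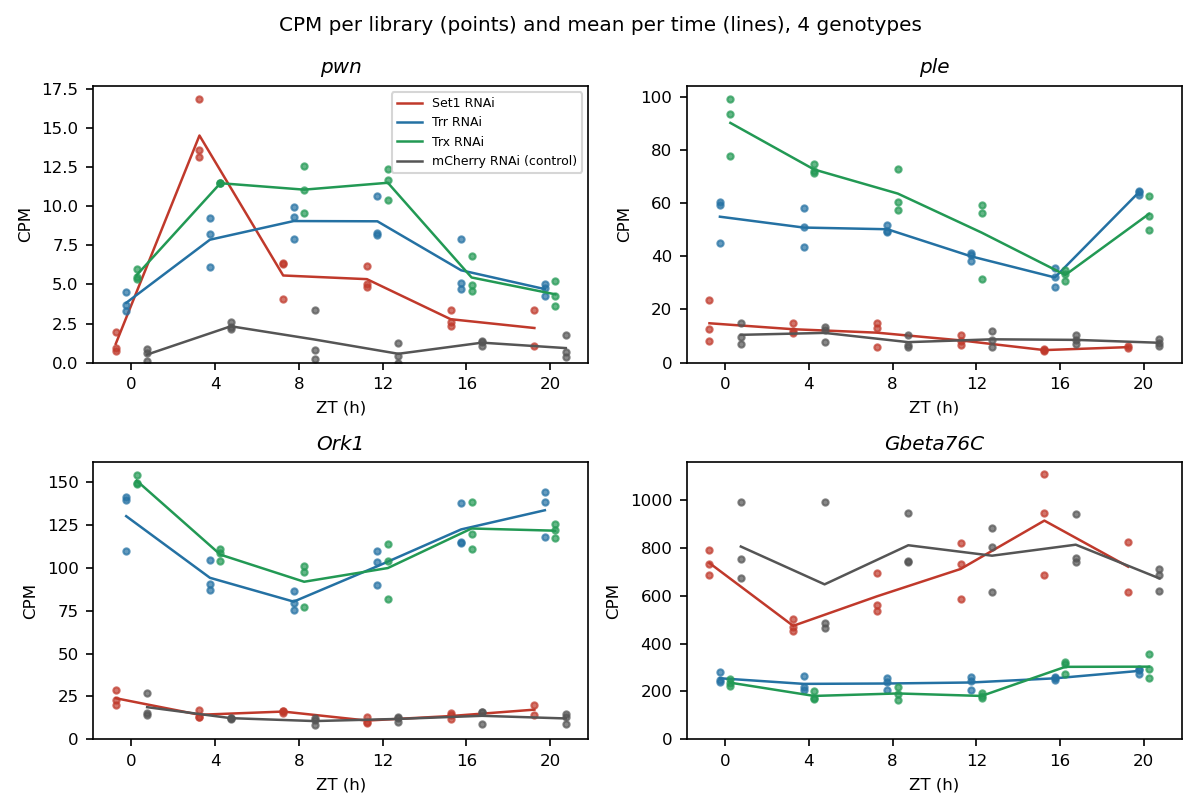
Points are CPM in single libraries and lines the mean at each ZT for pwn, ple, Ork1 and Gbeta76C in Set1 (red), Trr (blue), Trx (green) and mCherry RNAi (grey). ple and Ork1 lie far above the control with Trr and Trx, and Gbeta76C lies far below it. pwn was lowest at ZT0 or ZT20 with Set1, Trr and Trx RNAi, and at ZT0 in the control as well.

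In all, 9 genes were rhythmic in both genotypes (CG10184, CG6026, kst, ple, Scp2, Ork1, Gli, pwn and comm), 7.5% of the 120, against a background of 7.48% of all features tested, and 32 in at least 1, 26.7% against 25.7%. None of the 9 kept both calls in every setting run. Gli, an adhesion protein of the septate junctions that seal the nerve sheath, had a peak-to-trough difference of 0.65 ± 0.12 at ZT11.4 with Trr and 0.43 ± 0.14 at ZT8.01 with Trx (edgeR, adjusted p = 0.000591 and 0.0232). The kst difference was 0.43 ± 0.10 with Trr and 0.53 ± 0.11 with Trx (edgeR, adjusted p = 0.00802 and 0.0012). comm, which sorts the axon guidance receptor Robo, had 0.39 ± 0.04 and 0.34 ± 0.09 (edgeR, adjusted p = 0.00114 and 0.00345). In the fit of all 71 libraries Gli, kst and comm lost both calls (adjusted p = 0.103 to 0.902). The same calls, that of Gli with Trr excepted, were also lost without at least 1 replicate number. Of the photoreceptor genes, tadr, needed for intact rhabdomeres, had 0.52 ± 0.10 at ZT17.5 with Trx (edgeR, adjusted p = 0.000146) and 0.17 ± 0.09 with Trr (edgeR, adjusted p = 0.209), close to its Set1 peak at ZT17.4. Without control ZT12 replicate 1 in the rule, 13 of 79 genes were rhythmic with Trr and 15 with Trx. The background was 20.8% and 12.3% of all features tested, and 27.2% and 16.5% of the 7046 features.

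The Trr and Trx rhythms differed by test in 1 of the 120 genes, with a background of 1.2%. Rgk1, a small GTPase of the RGK family (FBgn0264753, 2R, 19311148 to 19356525, minus strand), had 133, 138 and 122 CPM at ZT12 and 119.9, 125 and 134 CPM at ZT0 in the Trr-labelled libraries. It had 189, 158 and 193 CPM at ZT12 and 143, 132 and 149 CPM at ZT0 in the Trx-labelled libraries. The times overlapped with Trr and did not overlap with Trx. The peak-to-trough difference was 0.05 ± 0.05 with Trr and 0.41 ± 0.06 with Trx (edgeR test of the difference, adjusted p = 0.0406). Leaving out any replicate number ended this call, as did the replicate block (adjusted p = 0.0522), no filter on low counts (0.0776), 1 RUVs factor (0.111) and the fit of all 71 libraries.

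Mean levels over the 6 times were compared with edgeR in 71 libraries, with a call where the log2 fold change reached 1 in either direction at an adjusted p under 0.01. Both comparisons share the control libraries. Against the control, 51 of the 120 genes passed with Trr (30 rose and 21 fell), where 46.4% of all features tested passed, 28.5% up and 17.9% down. With Trx 55 passed (33 rose and 22 fell), where 47.3% of all features passed, 28.5% up and 18.7% down. The shares among the 120 genes were 25.0% and 17.5% with Trr and 27.5% and 18.3% with Trx, near the background. The split depended on the adjustment for unwanted variation, and with 1 factor of the RUVs method it was 26 higher and 28 lower with Trr and 26 and 25 with Trx. By file totals in place of TMM the median log2 fold change of all features was 0.66 with Trr and 0.74 with Trx rather than 0.08 and 0.09, and the fold changes here are those by TMM. No called gene changed its direction by file totals.

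The libraries of Trr and Trx, as sets, differed from the control in several marker lists. Summed markers of outer photoreceptors ranged over 21395 to 31993 CPM with Trr and 21201 to 35125 CPM with Trx, against 56019 to 100255 CPM in the control. The 11 fat body markers ranged over 11445 to 17628 CPM with Trr and 10290.0 to 19255 CPM with Trx, against 1391 to 3111 CPM in the control, and 13 muscle markers over 969 to 4170.2 CPM with Trr and 1623 to 4768 CPM with Trx, against 34.5 to 94.3 CPM in the control. Inner photoreceptor markers ranged over 2594 to 3840 CPM with Trr and 2419 to 3552 CPM with Trx. Their control range was 414 to 885 CPM. Hemocyte markers ranged over 418 to 549 CPM with Trr and 423 to 571 CPM with Trx. Their control range was 166 to 294 CPM. Genes of the mitochondrial genome ranged over 2367 to 6200 CPM with Trr and 2322 to 7012 CPM with Trx. Their control range was 426 to 1382 CPM. None of these lists overlapped the control. Those of glia, lens and pigment cells, and brain neurons did overlap it with both Trr and Trx. With Trr, glial markers ranged over 732 to 1140 CPM, against 205 to 1130 CPM in the control. Markers of lens and pigment cells ranged over 865 to 1254 CPM, against 465 to 4767 CPM, and those of brain neurons over 2392 to 3424 CPM, against 886 to 2819 CPM. The effect of RNAi, the mixture of nuclei and any difference in preparation between the sets cannot be told apart in the mean levels.

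Genes that fell included those known from photoreceptors. Gbeta76C averaged 249 ± 26.8 CPM with Trr and 232 ± 59.5 CPM with Trx, against 753 ± 156 CPM in the control (SD, n = 18 each), log2 fold changes of -2.21 and -2.42. The rhabdomere gene tadr averaged 55.1 ± 5.28 CPM with Trr and 67.9 ± 11.7 CPM with Trx, against 200.3 ± 31.1 CPM in the control, with log2 fold changes of -2.49 and -2.27. Log2 fold changes of ninaG were -2.41 and -2.55, and of Cib2, a calcium-binding protein, -3.63 and -3.55. For each of these 4 genes the highest library with Trr or Trx lay below the lowest in the control.

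Genes that rose included Ork1 (110.4 ± 22.8 CPM with Trr and 116 ± 21.7 CPM with Trx, against 13.1 ± 4.10 CPM in the control, SD, n = 18 each), with log2 fold changes of 2.45 in both. Its lowest library had 75.2 CPM with Trr and 77.2 CPM with Trx, against a highest of 26.7 CPM in the control. Miox, which breaks down inositol, had log2 fold changes of 2.53 and 2.65. The neuronal gene ple and the glial gene repo, both on marker lists of other cell types, had log2 fold changes of 1.79 and 1.74 with Trr and 1.997 and 1.80 with Trx. Scp2, a sarcoplasmic calcium-binding protein that was picked after its values were seen, had the highest log2 fold changes, 2.70 and 2.73.

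The direction of these calls went with the Set1 peak time. Of the genes that rose with Trr, 27 of 30 had a Set1 peak from ZT0 to ZT12, against 6 of the 21 that fell, and with Trx it was 27 of 33 and 6 of 22, while 57 of all 120 peaked in those hours. Among the other 1551 features past the Set1 thresholds it was 97 of 125 that rose and 299 of 613 that fell with Trr, and 94 of 128 and 302 of 629 with Trx. This relation was seen in the data and has no test. Marker lists of cell types did not all follow it. The summed markers of glia and of lens and pigment cells peaked at ZT6.87 and ZT7.04 in the Set1-labelled libraries, and 6 of 9 and 7 of 10 of them rose with Trr. Those of outer photoreceptors peaked at ZT10.9, and 16 of 17 fell with Trr and 15 of 17 with Trx. Those of brain neurons peaked at ZT20.8, and 11 of 14 rose with Trr. Fat body markers peaked at ZT7.77, and 8 of 11 rose with Trr. Markers of inner photoreceptors, muscle and hemocytes peaked at ZT3.86, ZT0.47 and ZT0.15, with a weak fit (R2 of 0.15, 0.10 and 0.35). Of these, 7 of 7, 12 of 13 and 4 of 7 rose with Trr. The part of cell mixture in this relation was not tested.

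**Figure D5:**
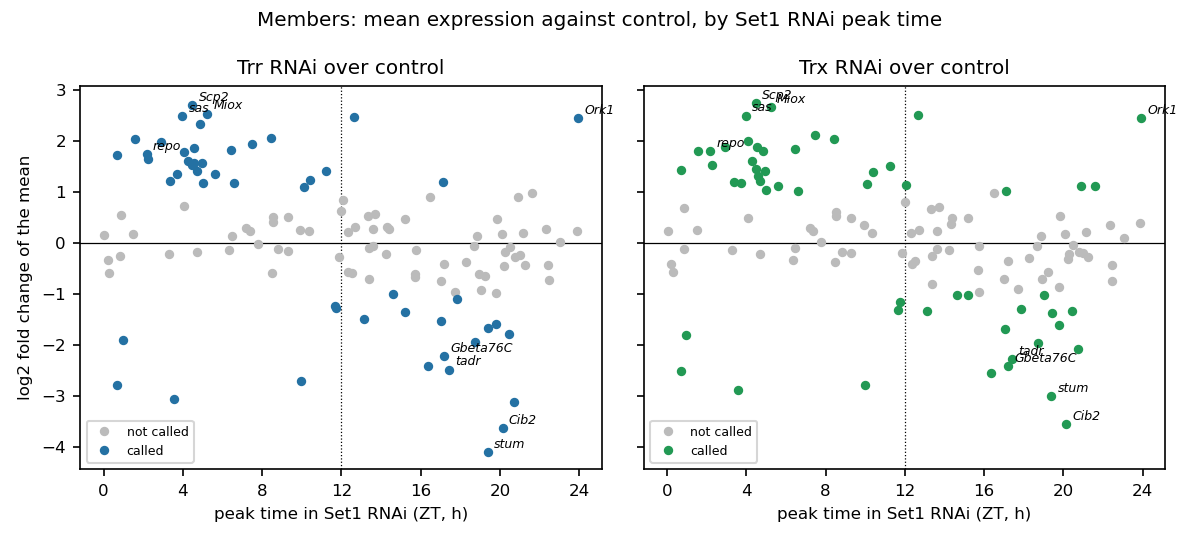
Each point is 1 of the 120 genes, placed by its peak time in the Set1-labelled libraries (ZT, h) and its edgeR log2 fold change of the mean over the control with Trr (left) or Trx (right), and coloured where called. Coloured points above 0 lie mostly at ZT0 to ZT12 (27 of 30 and 27 of 33) and those below 0 mostly at ZT12 to ZT24.

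Between the Trr-labelled and Trx-labelled libraries, 2 of the 120 genes differed in mean and both were lower with Trr, with a background of 1.14% of all features, 0.372% higher and 0.772% lower. The stum gene had a lowest, median and highest level of 5.93, 8.004 and 11.3 CPM with Trr, 12.4, 17.2 and 29.4 CPM with Trx and 50.6, 88.8 and 136 CPM in the control. The range with Trr lay below that with Trx, and both lay below the control. The log2 fold change of Trr over Trx was -1.11 (edgeR, adjusted p = 2.85e-12). CG9427 averaged 5.32 ± 0.789 CPM with Trr and 11.6 ± 1.51 CPM with Trx (SD, n = 18 each), a log2 fold change of -1.06 (edgeR, adjusted p = 8.12e-14), against 30.4 ± 6.48 CPM in the control. The fold change fell short of the limit of 1, at -0.99, for stum without replicate 3 and for CG9427 without replicate 2.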

How the data were processed

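Nuclear RNA-seq libraries of 4 genotypes at 6 time points were used. The authors deposited raw counts per feature for each library, with no normalization. Per the labels, methods and file headers, reads were trimmed (cutadapt 3.7, Trimmomatic 0.39), aligned with HISAT2 2.2.1 (SAMtools 1.17) and counted as pairs on exons of BDGP6.46 (Ensembl release 111) with featureCounts of Subread 2.0.1, without use of strand. Reads shared by overlapping genes can therefore move a value. A name table gave symbols for 23750 of 24278 identifiers, and biotypes came from an annotation of BDGP6.54 (Ensembl release 115) by identifier only. Libraries were assigned by their labels, and 71 of 72 were used, with 8424081 to 24586538 counts. No 2 libraries were identical. The labels do not say whether replicates were reared separately, so p-values measure the spread between these samples.

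Cosines were fitted by least squares with numpy 2.4.6 and pandas 2.3.3 in Python 3.11.15 to log2(CPM + 1), CPM being relative to the file total. Tests used edgeR 4.0.16 in R 4.3.3 on the counts (TMM, quasi-likelihood F tests, Benjamini-Hochberg over 14767 features with at least 1 CPM in all 3 replicates of at least 1 genotype and time). Rhythms were tested in the 36 Trr and Trx libraries and means in 71 libraries with 24 genotype and time groups. Errors of means are SD and errors of fits SE. Scripts were tested on simulated data. Alternatives were DESeq2 1.42.0 (its size factors and its test), other filters, 1 and 3 RUVs factors, a replicate block, other sets of libraries, and each replicate left out. Leaving out single control libraries was added after seeing the data. Figures used matplotlib 3.10.9.

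The genes named were the 10 with the highest R2, the 10 with the largest peak-to-trough difference and the 6 with the highest mean in Set1, members of each gene list (the 4 best fits where there were over 6), up to 8 per test by smallest p, and the 2 nearest to each threshold on either side. The members, lists and tests were chosen with earlier results of these data known. No sequence is given, because none was used here.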

Additional observations from a re-analysis of the deposited data

Results flagged for a closer look

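Of the 120 genes, 3 differed between the Trr-labelled and the Trx-labelled libraries by a direct test. The 24-h rhythm of Rgk1 differed (edgeR, adjusted p = 0.0406), with a peak-to-trough difference of 0.05 ± 0.05 with Trr and 0.41 ± 0.06 with Trx, and this call was lost in 7 of 11 other settings, among them the replicate block (adjusted p = 0.0522) and each replicate left out (0.184 to 0.42). The mean of stum was lower with Trr than with Trx in every library, with a log2 fold change of -1.11 ± 0.08 (SE), and that of CG9427 likewise, with -1.06 ± 0.06. Each missed the limit of 1 without 1 replicate number, at -0.99.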

How the results depend on the processing

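The number of genes under the rule was 120 with the file totals and 17 Set1-labelled libraries. It was 5 with the left-out library, 51 with an R2 of at least 0.6 in Set1, 71 with an R2 under 0.1 in the control, and 113 to 193 without 1 replicate number in both genotypes, with 50 to 66 genes shared. With TMM it was 131, of which 81 were shared. Members flat in the control numbered 79 without ZT12 replicate 1, and 79 to 114 over all control libraries left out. No fold change of the mean reversed in the settings run, which covered 8 genes over control and 2 for Trr over Trx.

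Genes called rhythmic numbered 20 with Trr, and 13 with 1 RUVs factor, 2 in a fit of all 71 libraries and 8 without any 1 replicate. With Trx there were 21, and 48 with 3 RUVs factors, 8 with 71 libraries and 9 to 13 without 1 replicate. Over all features the Trr calls numbered 3078, and 1934 with 1 RUVs factor, 868 with 71 libraries and 1015 to 1700 without 1 replicate. The Trx calls numbered 1821, and 3336 with 3 RUVs factors, 600 with 71 libraries and 805 to 1100 without 1 replicate. Only Ork1 with Trr, and CG10184, Gbeta76C, ple, pwn, stum and tadr with Trx, kept their call in every setting run. The rhythm difference was called in 1 gene, and in 2 with the DESeq2 test and in 0 with 1 RUVs factor, 71 libraries, no filter, the replicate block or any 1 replicate left out. Over all features it was called in 177, and in 465 with DESeq2, 38 with 1 RUVs factor, 4 with 71 libraries and 0 to 2 without 1 replicate. The cause was not tested.

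The mean of Trr over Trx was called in 2 genes, and in 1 to 2 without 1 replicate. The mean of Trx over control was called in 55, and in 31 with 3 RUVs factors. Without control ZT12 replicate 1 the calls over control numbered 53 with Trr and 54 with Trx. Same-numbered replicates mostly did not deviate together (correlation over 0.1 in 4 of 18 Trr and Trx pairs, 6 of 18 Trr and control pairs and 2 of 18 Trx and control pairs). The numbers were therefore not used to pair the samples. The Set1-labelled libraries were not in this check, and it cannot show that same-numbered samples had no preparation in common. With the replicate block the calls were 20 and 20 for rhythm, 50 and 55 for means over control and 2 for Trr over Trx. Depth limits the 13 genes with a control mean under 5 CPM, and for Ku80 a single library decided flatness.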
